A study of Mus musculus with 6 samples.

Results

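The SLC2A family of sugar carriers was examined in the prostates of TRAMP mice given OSU-CG5 or vehicle. The set was defined by name: every probe set whose platform annotation gave a single symbol, that symbol being Slc2a1, Slc2a2, Slc2a3, Slc2a4, Slc2a5, Slc2a6, Slc2a8, Slc2a9, Slc2a10 or Slc2a12. All 10 genes were found, through 19 of the 45037 probe sets tested, and 0 probe sets named a member together with another gene. SLC2A proteins, also called GLUTs, let hexoses cross a membrane down their concentration gradient, and hexokinases then trap the sugar inside the cell. Class I members carry mainly glucose, class II members fructose or urate, and class III members sit largely inside cells or have less settled substrates. Prostate epithelium is known for making and secreting citrate, for which glucose is a carbon source, and tumours often take up more glucose than the tissue they arise from.

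Both groups were intact males of the cross (C57BL/6 TRAMP x FvB) F1, which carry SV40 T antigens driven in prostate epithelium by a probasin promoter, so the controls bear the oncogene too. The vehicle group comprised 3 mice gavaged with vehicle alone, and the OSU-CG5 group 3 mice gavaged with OSU-CG5 at 100 mg/kg per day. Treatment ran for 4 weeks, from 6 to 10 weeks of age, and tissue was taken 2 to 4 h after the last dose. OSU-CG5 is known here by its code name only; earlier work presents it as a mimic of energy restriction. For each mouse, RNA of the dorsal and lateral prostate was read on 1 Affymetrix array. The values are log2 RMA signals per probe set, and because probe sets bind with different strength, levels were compared between arrays and not between genes. In whole tissue, fewer cells of a type and less RNA per cell cannot be told apart.

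The arrays had medians between 5.30 and 5.38 and lower quartiles between 3.87 and 4.05. Vehicle replicate 2 stood apart, with correlations across probe sets of 0.966 to 0.981 against the other arrays, where all other pairs lay between 0.987 and 0.995. Its mean over 5 seminal vesicle secretory genes was 8.07, against 4.10 and 5.26 in the other vehicle mice and 3.72 to 4.82 with OSU-CG5. The 6 measured luminal prostate markers had array means of 12.24 to 12.46 in vehicle and 12.21 to 12.38 with OSU-CG5. Transcripts that define the labelled tissue were thus present on every array. Pbsn, Tgm4 and Msmb differed by 0.18, 0.09 and 0.35 (OSU-CG5 minus vehicle, log2), and Krt8, Krt18 and Hoxb13 by -0.50, -0.22 and -0.10. Without vehicle replicate 2 these were -0.01, 0.10, -0.00, -0.52, -0.07 and 0.04. Pbsn, at 13.28, and Msmb, at 12.26, were lowest in that mouse. Values without vehicle replicate 2 are given beside many results, but not beside every one.

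Most Slc2a probe sets read slightly lower with OSU-CG5, but none passed the test. The difference was below 0 for 16 of 19, with a median of -0.14 on the log2 scale, while over all probe sets 60.5% were below 0 and the median was -0.06. Without vehicle replicate 2, 14 of 19 were below 0 with a median of -0.06, beside 56.5% and -0.03 over all probe sets. Tested with limma and adjusted by Benjamini-Hochberg across the 45037 probe sets, 0 of 19 had an adjusted p under 0.05, and 0% of all probe sets did. The smallest adjusted p in the family was 0.223, for a Slc2a9 probe set. Of the 19, 1 was lower and 0 were higher at p under 0.05 before adjustment, where 6.8% of all probe sets were lower and 9.63% higher. The groups did not overlap for 3 of 19, all with OSU-CG5 lower, against 11.9% of all probe sets in that direction and 11.7% in the other. The lower-direction counts of 1 and 3 lie near those background shares.

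**Figure D1:**
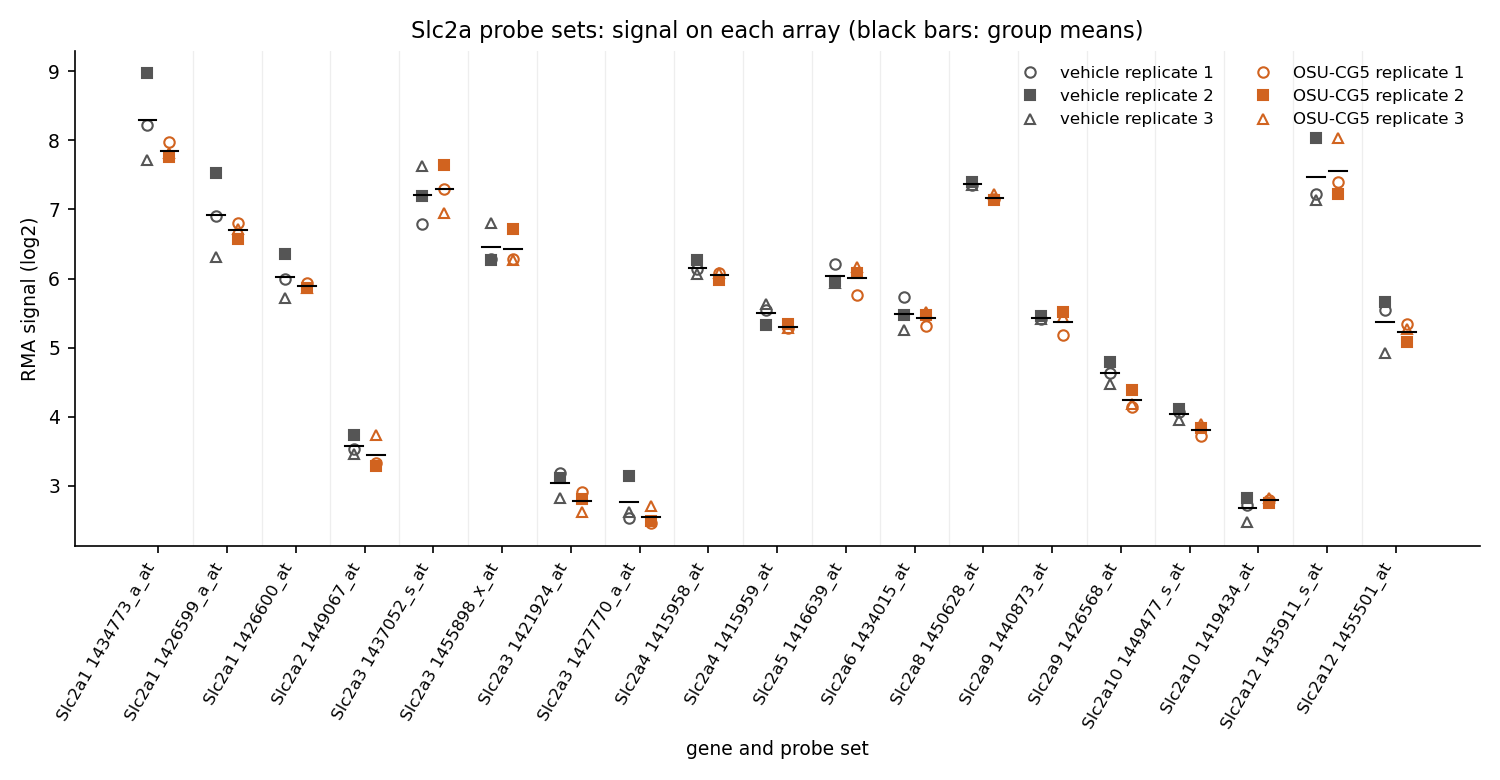
Log2 RMA signal of the 19 Slc2a probe sets (x axis, gene and probe set) on each of the 6 arrays, with grey symbols for vehicle, orange for OSU-CG5, one symbol shape per replicate number and black bars for group means. The grey square of vehicle replicate 2 lies highest for each of the 3 Slc2a1 probe sets, and groups separate for Slc2a8, one Slc2a9 and one Slc2a10 probe set.

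Each 95% interval concerns a single probe set, and none is an interval for the family. For the 10 probe sets of highest mean per gene, differences ran from -0.46 for Slc2a1 to 0.09 for Slc2a3, with a median of -0.08 beside -0.09 over the 18193 genes measured the same way. The widest 95% intervals were those of Slc2a1, from -1.09 to 0.18, and Slc2a12, from -0.56 to 0.73. For Slc2a8 the interval was -0.45 to 0.04, and for the brighter Slc2a4 probe set -0.37 to 0.15. As ratios of OSU-CG5 to vehicle these intervals span 0.469 to 1.13 for Slc2a1, 0.678 to 1.66 for Slc2a12, 0.734 to 1.03 for Slc2a8 and 0.773 to 1.11 for Slc2a4.

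**Figure D2:**
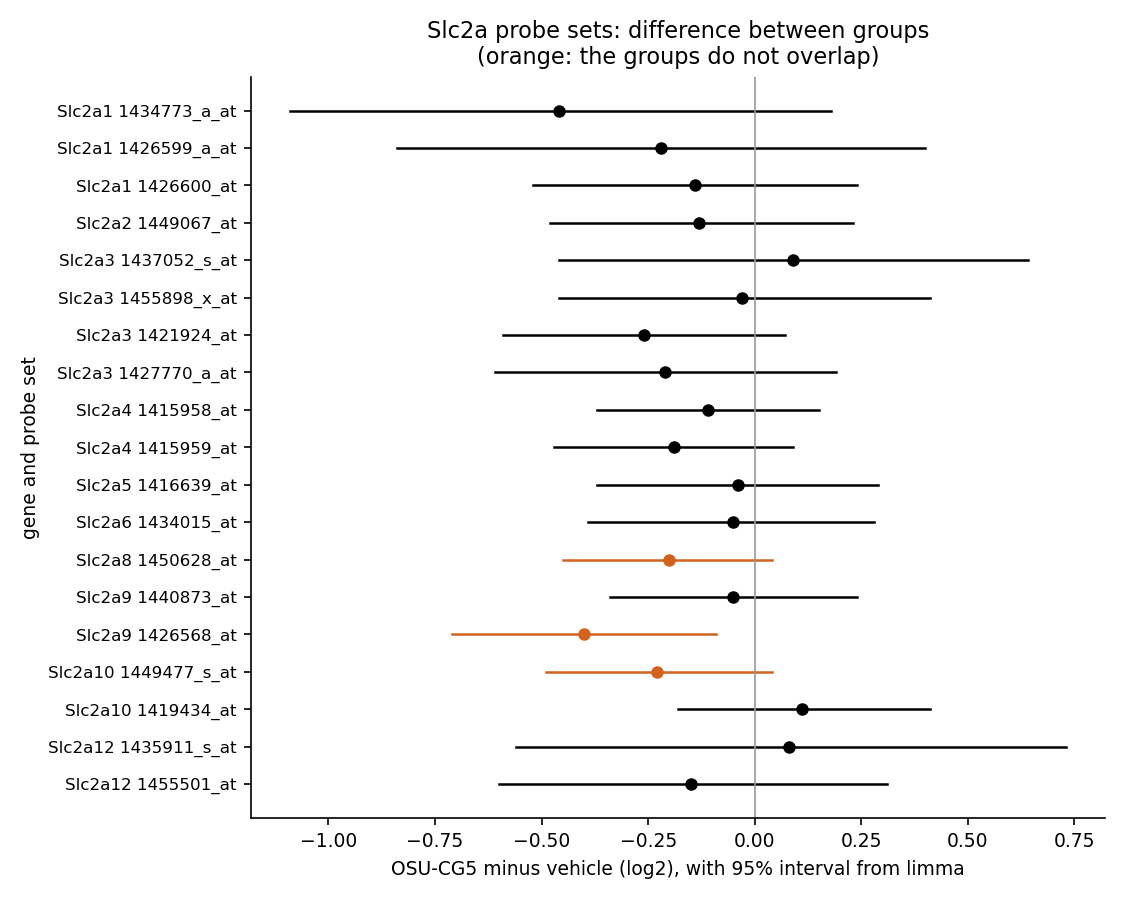
OSU-CG5 minus vehicle on the log2 scale (x axis) for each of the 19 probe sets (y axis), with points for the limma estimate and lines for its 95% interval over 3 arrays per group. Orange marks the 3 probe sets whose groups do not overlap, and the interval leaves out 0 for the Slc2a9 probe set 1426568_at alone.

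Among class I carriers, Slc2a1 varied more between vehicle mice than between groups. Slc2a1 encodes GLUT1, the carrier of basal glucose uptake in most cells and one often raised in tumours. Its probe set of highest mean, 1434773_a_at, read 8.22, 8.97 and 7.71 in vehicle replicates 1, 2 and 3 and 7.97, 7.76 and 7.81 in OSU-CG5 replicates 1, 2 and 3. The treated mice lay between the lowest and the highest vehicle mouse, so the groups overlapped. The means were 8.30 ± 0.63 and 7.85 ± 0.11 (SD, n = 3), so OSU-CG5 minus vehicle was -0.46 on the log2 scale (SE 0.28; limma adjusted p = 0.435). The vehicle range was 1.26 and the OSU-CG5 range 0.21.

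The other Slc2a1 probe sets gave the same order of vehicle mice. Probe set 1426599_a_at read 6.91, 7.53 and 6.31 in vehicle and 6.80, 6.57 and 6.72 with OSU-CG5. Probe set 1426600_at read 6.00, 6.36 and 5.72 in vehicle and 5.93, 5.87 and 5.86 with OSU-CG5. On all 3 probe sets vehicle replicate 2 was the highest array and vehicle replicate 3 the lowest, with every treated mouse between. The log2 differences were -0.22 (SE 0.27) and -0.14 (SE 0.17). Without vehicle replicate 2 the 3 differences were -0.12, 0.09 and 0.02, so that 2 of 3 changed sign, and without vehicle replicate 3 they were -0.75, -0.53 and -0.30, with limma adjusted p between 0.116 and 0.295. For those 2 probe sets the direction rested on vehicle replicate 2, and for all 3 the size rested on which vehicle mouse was counted. The high value in vehicle replicate 2 came from the array with the high seminal vesicle transcripts given above, and the part of that tissue in it was not tested.

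The promoter windows of Slc2a1 and Slc2a8 are shown because these genes make the contrast in the family, wide spread between control mice against tight groups that do not overlap. RefSeq windows on GRCm38.p6 were matched for 8 of the 10 genes. Each line gives the 250 bases before the transcript start, 5′ to 3′ on the gene's strand, at chr4:119108495-119108744 (+) and chr2:32982084-32982333 (-), with GC boxes (GGGCGG or its reverse complement CCGCCC), a motif bound by Sp1, in capitals.
Slc2a1: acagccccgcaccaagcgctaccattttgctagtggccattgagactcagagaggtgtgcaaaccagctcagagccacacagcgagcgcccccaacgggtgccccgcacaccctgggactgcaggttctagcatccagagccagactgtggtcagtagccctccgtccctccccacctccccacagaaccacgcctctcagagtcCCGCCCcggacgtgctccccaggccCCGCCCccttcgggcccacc
Slc2a8: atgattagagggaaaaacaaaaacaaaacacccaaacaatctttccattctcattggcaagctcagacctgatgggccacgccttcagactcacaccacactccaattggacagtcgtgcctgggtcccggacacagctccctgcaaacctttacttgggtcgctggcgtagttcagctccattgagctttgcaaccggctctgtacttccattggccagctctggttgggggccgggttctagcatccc
The Slc2a1 window held 2 GC boxes, the nearer beginning 20 bases before the start, and the Slc2a8 window held 0. A GC box was present in 4 of the 8 windows, those of Slc2a1, Slc2a5, Slc2a6 and Slc2a10, and in 32.7% of 32851 RefSeq windows of the same length. The core of the hypoxia response element, ACGTG or CACGT, was present in the Slc2a1 window alone among the 8 and in 16.6% of all windows. The 2 printed windows were picked by signal. Slc2a12, with a vehicle range of 0.89 on its brighter probe set, had 0 GC boxes. Slc2a10, with groups that do not overlap on its brighter probe set, had 2. These are matches of letters only, with no measurement of binding, and a link between motif and signal was not tested.

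Slc2a3 encodes GLUT3, a high-affinity glucose carrier prominent in neurons and some blood cells. Its probe set 1437052_s_at read 6.79, 7.19 and 7.63 in vehicle and 7.29, 7.64 and 6.95 with OSU-CG5. Each group spanned most of the range of the other, and the log2 difference was 0.09 (SE 0.24; limma adjusted p = 0.87). Probe set 1455898_x_at read 6.28, 6.27 and 6.80 in vehicle and 6.28, 6.72 and 6.27 with OSU-CG5, and both probe sets were high in vehicle replicate 3 and OSU-CG5 replicate 2. Its difference was -0.03 (SE 0.19). The dimmer probe sets 1421924_at and 1427770_a_at read between 2.46 and 3.19 on all arrays, under every array's lower quartile, with differences of -0.26 (SE 0.14) and -0.21 (SE 0.18). The second was highest in vehicle replicate 2, at 3.14, and differed by -0.02 (SE 0.13) without that array. The array order of the brighter pair was thus not that of the Slc2a1 probe sets.

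**Figure D3:**
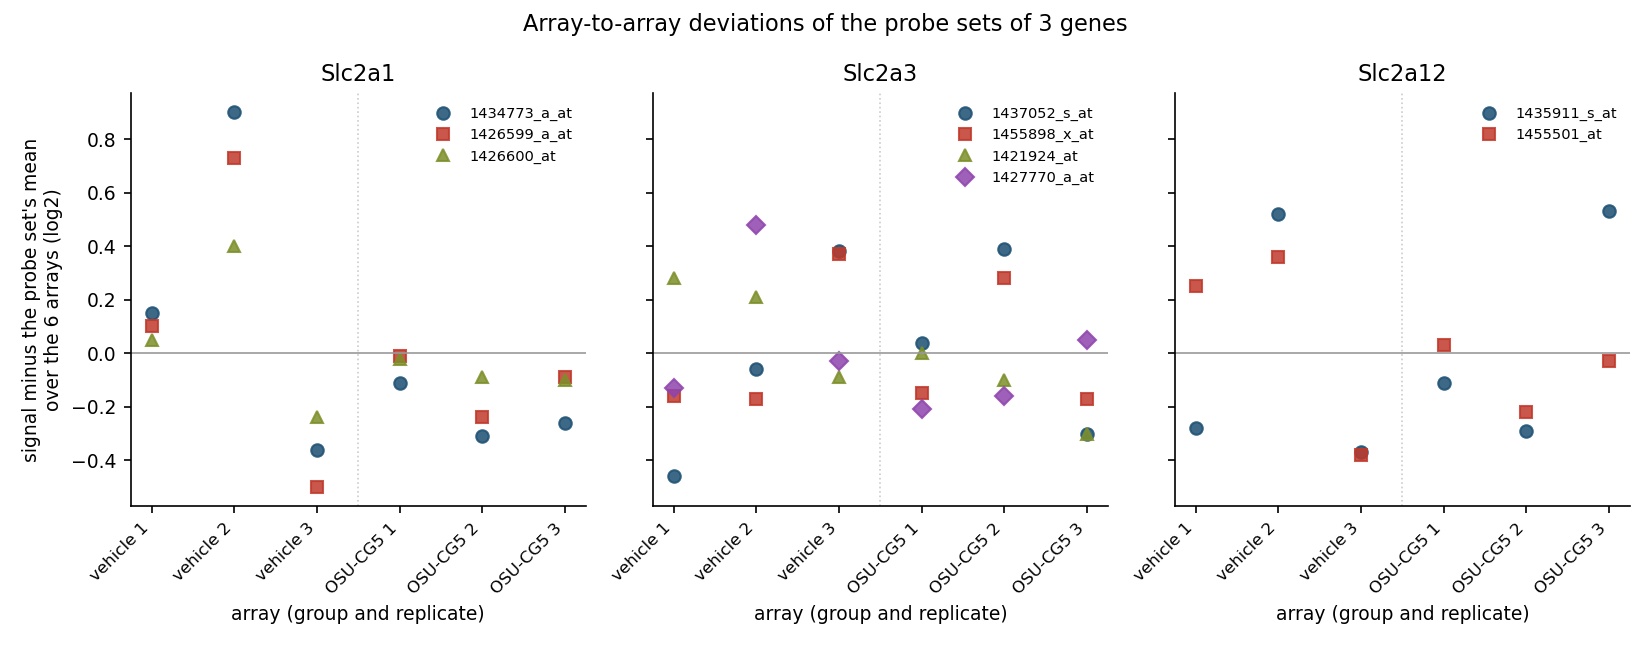
Signal of each Slc2a1, Slc2a3 and Slc2a12 probe set minus its own mean over the 6 arrays (y axis, log2), by array (x axis), with one colour and symbol per probe set. The 3 Slc2a1 probe sets share a peak in vehicle replicate 2, of 0.90, 0.73 and 0.40. Both Slc2a12 probe sets are also high there, at 0.52 and 0.36, and low in vehicle replicate 3, at -0.37 and -0.38. They disagree in vehicle replicate 1 and OSU-CG5 replicate 3, and the Slc2a3 probe sets disagree among themselves on several arrays.

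Slc2a4 encodes GLUT4, the carrier that insulin moves to the surface of muscle and fat cells. Probe set 1415958_at read 6.14, 6.27 and 6.07 in vehicle and 6.08, 5.98 and 6.08 with OSU-CG5, which differed by -0.11 (log2, SE 0.11; limma adjusted p = 0.644). Probe set 1415959_at read 5.55, 5.33 and 5.63 in vehicle and 5.29, 5.35 and 5.28 with OSU-CG5, which differed by -0.19 (log2, SE 0.12; limma adjusted p = 0.45). Both overlapped by a small margin. Without vehicle replicate 2 the second differed by -0.28 (SE 0.12; limma adjusted p = 0.322). Beside these values, all 8 skeletal muscle markers read lower with OSU-CG5, as did 11945 of the 18193 genes. Their array means were 5.80 to 6.43 in vehicle and 4.89 to 5.72 with OSU-CG5. Of the 8, 6 had an unadjusted p under 0.05, where 8.43% of all genes, each read by its brightest probe set, were lower at that level. Without vehicle replicate 2 it was 4, against 6.58% of all genes. The 4 measured fat markers had means of 4.59 to 4.99 in vehicle and 4.40 to 5.33 with OSU-CG5, and Adipoq read under 4 on all arrays but OSU-CG5 replicate 1, at 5.17. The part of muscle and fat in the Slc2a4 signal was not tested.

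Slc2a2 encodes GLUT2, the low-affinity carrier of liver and pancreatic beta cells. It read 3.54, 3.74 and 3.46 in vehicle and 3.33, 3.29 and 3.74 with OSU-CG5, under every array's lower quartile. The groups overlapped, with a difference of -0.13 (log2, SE 0.16; limma adjusted p = 0.698), and of -0.05 (SE 0.16) without vehicle replicate 2.

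Of the class II carriers, Slc2a9 held the family's smallest p on one probe set and almost no difference on the other. Slc2a9 encodes GLUT9, which carries urate. Probe set 1426568_at read 4.64, 4.79 and 4.48 in vehicle and 4.14, 4.39 and 4.18 with OSU-CG5. Every treated mouse lay below every vehicle mouse. The log2 difference was -0.40 (SE 0.13), 1.32-fold lower, with a limma unadjusted p of 0.0163 and adjusted p of 0.223. It was -0.32 (SE 0.14; limma adjusted p = 0.304) without vehicle replicate 2. Probe set 1440873_at, the brighter one, read 5.41, 5.46 and 5.41 in vehicle and 5.18, 5.51 and 5.44 with OSU-CG5. Its groups overlapped, with a log2 difference of -0.05 (SE 0.13). Which transcripts each probe set reads was not tested, nor was the difference between them.

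Slc2a5 encodes GLUT5, a fructose carrier, and did not separate the groups. It read 6.21, 5.97 and 5.94 in vehicle and 5.76, 6.08 and 6.17 with OSU-CG5. The lowest and the second highest of the 6 values were both treated mice. The log2 difference was -0.04 (SE 0.15; limma adjusted p = 0.91).

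Of the class III carriers, Slc2a8 gave the tightest groups. It encodes GLUT8, a carrier held mostly in intracellular membranes. Its probe set 1450628_at read 7.35, 7.39 and 7.36 in vehicle and 7.15, 7.13 and 7.22 with OSU-CG5, so all treated mice lay below all vehicle mice. The means were 7.37 ± 0.02 and 7.16 ± 0.05 (SD, n = 3), a 1.15-fold lower signal (log2 difference -0.20, SE 0.11; limma adjusted p = 0.373). The spread within each group was small beside the difference, but limma shares variance across probe sets and set the SE above what these arrays alone give. An ordinary linear model on the same values gave an SE of 0.03 and an unadjusted p of 0.00235, with an adjusted p of 0.356. The difference stayed between -0.23 and -0.19 when each array was left out in turn.

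Slc2a10 encodes GLUT10, whose loss in people causes arterial tortuosity. Probe set 1449477_s_at read 4.07, 4.12 and 3.95 in vehicle and 3.72, 3.84 and 3.89 with OSU-CG5. The groups did not overlap, by a margin of hundredths between vehicle replicate 3 and OSU-CG5 replicate 3, and the log2 difference was -0.23 (SE 0.12; limma adjusted p = 0.362). The signal was dim, under the lower quartile on all 3 treated arrays and on 1 vehicle array. Probe set 1419434_at read 2.73, 2.82 and 2.48 in vehicle and 2.79, 2.76 and 2.83 with OSU-CG5, with a log2 difference of 0.11 (SE 0.13). All its values lay under the arrays' lower quartiles. Endothelial markers moved beside the first probe set: 6 of 6 read lower, as did 11945 of the 18193 genes. The marker means were 5.25 to 5.50 in vehicle and 4.95 to 5.14 with OSU-CG5. At an unadjusted p under 0.05, 4 of the 6 were lower (8.43% of all genes lower) and 2 without vehicle replicate 2 (6.58%). Their part in the Slc2a10 signal was not tested.

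Slc2a12 encodes GLUT12, a carrier found in insulin-sensitive tissues and in prostate and breast tumours. Its probe set 1435911_s_at read 7.23, 8.03 and 7.14 in vehicle and 7.40, 7.22 and 8.04 with OSU-CG5. One mouse of each group was high, vehicle replicate 2 and OSU-CG5 replicate 3, and the other 4 lay between 7.14 and 7.40. The log2 difference was 0.08 (SE 0.28; limma adjusted p = 0.901), and it was 0.37 (SE 0.22; limma adjusted p = 0.457) without vehicle replicate 2. Probe set 1455501_at read 5.55, 5.66 and 4.92 in vehicle and 5.34, 5.08 and 5.27 with OSU-CG5, a log2 difference of -0.15 (SE 0.20). This was -0.01 (SE 0.19) without vehicle replicate 2 and -0.38 (SE 0.14; limma adjusted p = 0.183) without vehicle replicate 3. The high value of OSU-CG5 replicate 3 was absent from this second probe set.

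Slc2a6 encodes GLUT6, a lysosomal carrier known from macrophages and spleen. It read 5.73, 5.48 and 5.25 in vehicle and 5.32, 5.47 and 5.52 with OSU-CG5, with overlapping groups and a difference of -0.05 (log2, SE 0.15; limma adjusted p = 0.876). Macrophage markers read lower beside it, 7 of 7, with means of 7.31 to 7.75 in vehicle and 6.83 to 7.19 with OSU-CG5, and 4 of them had an unadjusted p under 0.05 (8.43% of all genes lower), or 3 without vehicle replicate 2 (6.58%). Over the 18193 genes read by their brightest probe set, 11945 read lower. The groups did not overlap for 4 of the 7 markers, all with OSU-CG5 lower, beside 2576 of those genes. A mean over 7 genes and a single probe set are unlike measures, so no comparison is drawn between them. The part of macrophages in the Slc2a6 signal was not tested.

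Across the family, vehicle replicate 2 was the highest array for 9 of 19 probe sets and the lowest for 0, against 32.5% and 20.9% of all probe sets. Vehicle replicate 3 was the lowest array for 7 of 19, against 12.6%. Those 7 came from Slc2a1, Slc2a6, Slc2a10 and Slc2a12 only, with several probe sets each from Slc2a1 and Slc2a12. The median deviation from each probe set's mean was 0.09, 0.19 and -0.06 in vehicle replicates 1, 2 and 3, and it lay between -0.11 and -0.04 in the treated mice. The SD within vehicle exceeded that within OSU-CG5 for 14 of 19, or 73.7%, against 64.9% of all probe sets. The median SDs were 0.20 and 0.13 in the family and 0.18 and 0.13 over all probe sets. Leaving out 1 array changed the number of members at an unadjusted p under 0.05. It was 2 without vehicle replicate 2, where 15.2% of all probe sets passed, and 5 without vehicle replicate 3, where 21.5% did. In both fits these members were all lower with OSU-CG5, while the shares over all probe sets count both directions. The 5 came from Slc2a1, Slc2a3, Slc2a9 and Slc2a12. Dropping OSU-CG5 replicate 1 or OSU-CG5 replicate 3 left 0, with no share over all probe sets given. No member passed the adjusted threshold in any of the 15 alternative fits. Over all probe sets 0.888% did once vehicle replicate 2 was left out, 1.97% once vehicle replicate 3 was, and 1.83% under array quality weights. Those calls were mostly higher with OSU-CG5: 379 higher and 21 lower, 851 and 34, and 762 and 60, in that order.

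The genes whose pattern over the 6 arrays was nearest to that of a member were found by the root mean square difference of centred values among 15260 probe sets averaging log2 6 or more. For Slc2a1 (1434773_a_at, own deviation 0.44) these were probe sets of Noc4l, Tor2a, Coro7 and Sik3, at 0.0655, 0.0726, 0.0814 and 0.0854. All 4 carried the suffix _x_at, the type whose probes can also bind other transcripts, which made up 7.5% of the candidates. The Noc4l probe set read 8.17, 8.78 and 7.65 in vehicle and 7.74, 7.57 and 7.65 with OSU-CG5. For Slc2a12 (1435911_s_at, own deviation 0.38) the nearest were Dclk3, Enpp3, Cldn10 and Gstt3, at 0.103, 0.106, 0.127 and 0.128. The ectoenzyme gene Enpp3 read 5.83, 6.59 and 5.82 in vehicle and 6.29, 5.93 and 6.71 with OSU-CG5, high in the same 2 mice as Slc2a12. Noc4l and Enpp3 were picked for their nearness, so the likeness of their values is not a separate result.

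Other genes of glucose uptake were taken from 4 lists of 68 genes, of which 59 were measured. Before adjustment, 6 of 59 read lower and 4 higher with OSU-CG5 at p under 0.05, against 8.43% and 5.4% of the 18193 genes read by their brightest probe set. Of the 59, 0 passed adjustment (smallest limma adjusted p 0.174). The median difference was -0.02. Of the 10 genes, 8 had another probe set. The other probe sets all lay in the same direction for Slc5a2, Rab8a, Stom, Pik3ca and Prkaa2. They all lay in the opposite direction for Tbc1d4, Aspscr1 and Insr. Of the 19 other probe sets 15 lay in the same direction, but Stom and Pik3ca gave 5 each. No share over all genes is given here.

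Among other carriers, 8 of 10 were below 0 with a median of -0.13, beside 11945 of the 18193 genes and -0.09. At an unadjusted p under 0.05, beside 8.43% of all genes lower and 5.4% higher, there was 1. This was Slc5a2, a sodium-coupled glucose carrier best known from kidney, which read 6.67, 6.21 and 6.01 in vehicle and 5.70, 6.06 and 5.84 with OSU-CG5 (log2 difference -0.43, SE 0.19; limma adjusted p = 0.302). Its groups overlapped through OSU-CG5 replicate 2. The sodium-coupled glucose carrier Slc5a1 differed by 0.13 (SE 0.18). The proton-coupled sugar carrier gene Slc45a3, known as prostein for its prostate expression, differed by 0.12 (SE 0.19). Without vehicle replicate 2, Slc5a1 differed by 0.29 and Slc45a3 by 0.26.

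Among genes of hexose phosphorylation and the first steps after entry, 7 of 8 were below 0, beside 11945 of the 18193 genes. The list's median was -0.17, beside -0.09 over all genes, and -0.04 without vehicle replicate 2. G6pc3, a ubiquitous glucose-6-phosphatase, read 6.88, 7.27 and 6.75 in vehicle and 6.50, 6.54 and 6.69 with OSU-CG5 (log2 difference -0.39, SE 0.16; limma adjusted p = 0.272). The G6pc3 difference was -0.24 without vehicle replicate 2. G6pc3 was the 1 gene of this list at an unadjusted p under 0.05, beside 8.43% of all genes lower and 5.4% higher. Without vehicle replicate 2 there were 0, beside 6.58% lower and 6.07% higher. Hk2, the inducible hexokinase of tumours and muscle, read 7.48, 7.95 and 6.88 in vehicle and 7.68, 6.87 and 7.06 with OSU-CG5. Its log2 difference was -0.23 (SE 0.29), and 0.03 without vehicle replicate 2. Within vehicle Hk2 had the same order of mice as Slc2a1, but so did G6pc3, Txnip and Myc. No share of all genes with that order is given. The broadly expressed Hk1 differed by -0.03 (SE 0.17), and by 0.10 without vehicle replicate 2.

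Among 21 genes that move the transporters between membranes, 4 read lower with OSU-CG5 and 1 read higher at p under 0.05 before adjustment. This stood beside 8.43% and 5.4% of all genes. Of the 21, 20 averaged at least log2 6, where 1108 of 17617 probe sets were lower and 2764 higher. The median of the list was 0.00. Tbc1d4, also called AS160, the Akt substrate that holds GLUT4 vesicles back until it is phosphorylated, read 5.99, 6.28 and 6.30 in vehicle and 6.73, 6.37 and 6.83 with OSU-CG5. All treated mice lay above all vehicle mice, with a difference of 0.46 (log2, SE 0.16; limma adjusted p = 0.233), while its other probe set differed by -0.14. Aspscr1, also called TUG, which tethers GLUT4 vesicles, read 6.18, 6.49 and 6.34 in vehicle and 6.05, 5.67 and 5.65 with OSU-CG5. It differed by -0.55 (log2, SE 0.15; limma adjusted p = 0.183), with 0.04 on its other probe set. The vesicle GTPase genes Rab8a and Rab13 differed by -0.62 (SE 0.16) and -0.32 (SE 0.13). Stom, whose product stomatin binds GLUT1, differed by -0.31 (SE 0.11), and its 5 other probe sets ran from -0.44 to -0.01. Without vehicle replicate 2 this list had 2 lower and 2 higher, beside 6.58% and 6.07% of all genes.

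Among 20 genes that signal to the transporters or regulate their transcription, 3 read higher at an unadjusted p under 0.05 and 0 lower. This stood beside 5.4% and 8.43% of all genes. Of the 20, 14 averaged at least log2 6, where 2764 of 17617 probe sets read higher at that level. The median of the list was 0.03. Prkaa2, a catalytic subunit of the energy sensor AMPK, read 6.63, 6.51 and 6.52 in vehicle and 6.90, 6.96 and 7.29 with OSU-CG5 (log2 difference 0.50, SE 0.14; limma adjusted p = 0.183). Its other probe sets differed by 0.03 and 0.15. Insr, the insulin receptor gene, read 8.48, 8.42 and 8.27 in vehicle and 8.74, 8.78 and 8.84 with OSU-CG5 (log2 difference 0.40, SE 0.11; limma adjusted p = 0.19), but its other probe sets differed by -0.40 and -0.21. Pik3ca, the catalytic subunit of PI3-kinase downstream of that receptor, differed by 0.54 (SE 0.16; limma adjusted p = 0.203), with 5 of 5 other probe sets above 0. Without vehicle replicate 2 the Pik3ca difference was 0.37. Of the 20 genes, 5 had groups that did not overlap, all with OSU-CG5 higher, beside 1474 of the 18193 genes in that direction. The 3 named here are among them, but they were picked by their p, so their separation adds little to it. Txnip, which promotes removal of GLUT1 from the cell surface and is induced by glucose, read 11.46, 11.79 and 10.73 in vehicle and 11.60, 11.19 and 11.74 with OSU-CG5, a log2 difference of 0.18 (SE 0.27). The Txnip difference was 0.41 without vehicle replicate 2. Hif1a and Myc, both known to raise Slc2a1 transcription, differed by 0.02 (SE 0.13) and -0.24 (SE 0.24), and Sp1 by 0.23 (SE 0.12). Without vehicle replicate 2 the Myc difference was 0.02.

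**Figure D4:**
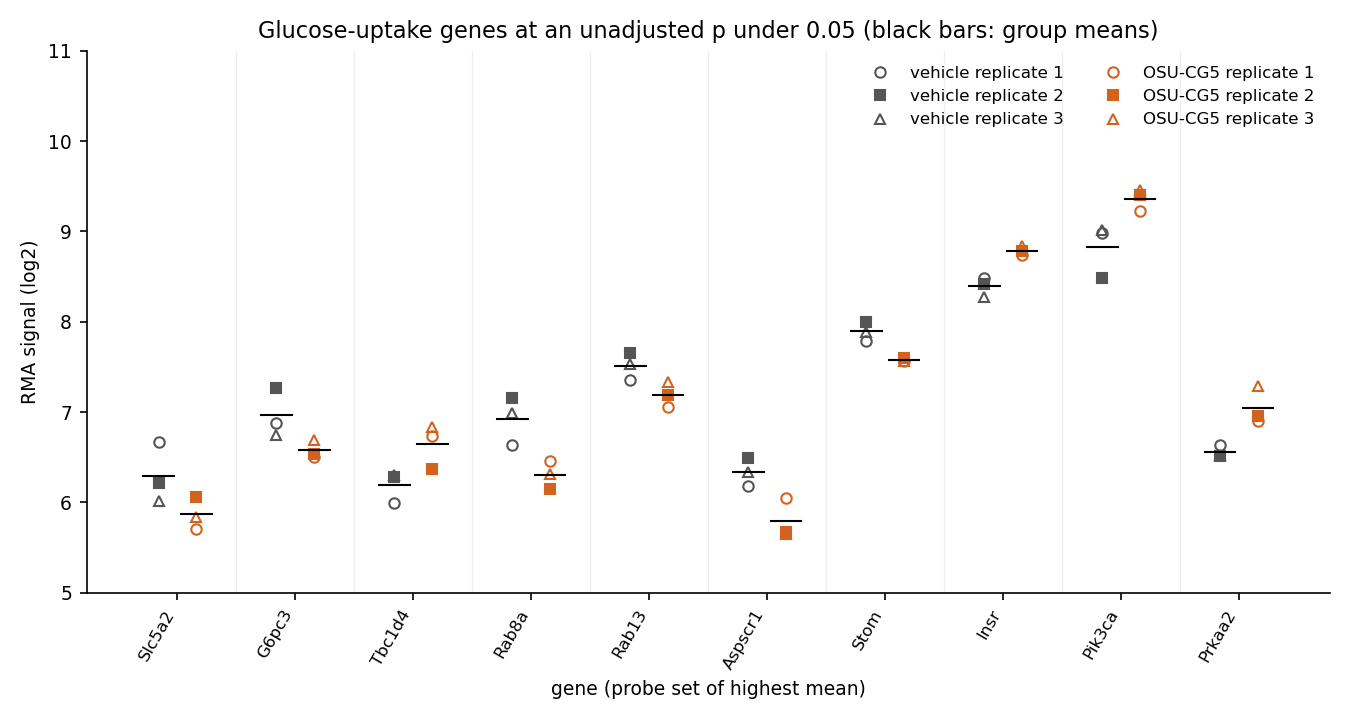
Log2 RMA signal (y axis) of the 10 glucose-uptake genes outside the family with an unadjusted p under 0.05 (x axis), on each array, with grey symbols for vehicle, orange for OSU-CG5 and black bars for group means. Tbc1d4, Insr, Pik3ca and Prkaa2 lie higher in every treated mouse than in any vehicle mouse, and G6pc3, Rab8a, Rab13, Aspscr1 and Stom lie lower. The genes were picked by that p, which favours groups that separate, and none of the 10 passed the adjusted threshold.

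Markers of further cell types were read beside the carriers. The 6 neutrophil markers had means of 4.29 to 4.53 in vehicle and 4.06 to 4.35 with OSU-CG5, and the 3 measured erythroid markers 4.53 to 4.67 and 4.42 to 4.48. The 3 hepatocyte markers, cells rich in Slc2a2, had means of 6.32 to 6.77 and 6.03 to 6.25, carried by Ttr at 9.27 to 10.50, while Alb read 4.48 to 4.98. The 4 neuronal markers, cells rich in Slc2a3, had means of 5.25 to 5.36 in vehicle and 5.37 to 6.38 with OSU-CG5, and Snap25 read 2.86, 2.56 and 2.93 against 4.70, 5.51 and 3.17. The differences were 1.68 for Snap25, 0.59 for Syt1, 0.07 for Tubb3 and -0.34 for Rbfox3. Of the 4 lymphocyte markers 3 read lower, beside 11945 of the 18193 genes, with means of 5.27 to 5.42 and 5.07 to 5.14. The 3 basal epithelial markers had means of 5.82 to 5.92 and 5.59 to 5.81. The part of these cells in the carriers' signals was not tested.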

How the data were processed

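Gene expression was measured on 6 Affymetrix arrays, 1 per mouse, 3 per group. The deposited values are log2 expression per probe set, made with RMA per the submitters' processing notes. Which software ran it is not given in the sources used here. RMA summarises the arrays together after quantile normalization, which takes out part of any shift shared by most transcripts. Groups followed the treatment in each sample's source label. The free-text description of 2 treated samples carries another number after the compound's prefix. Replicate numbers only name the mice.

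Of 45101 probe sets, 64 Affymetrix controls were left out. Of the rest, 34945 had 1 gene symbol in the platform annotation, 932 several and 9160 none here. All 19 Slc2a probe sets were kept without a filter on signal: 5 had a mean under log2 4 and 8 a mean of at least log2 6. The difference, OSU-CG5 minus vehicle, was fitted with lmFit and eBayes (limma 3.58.1, R 4.3.3) over all 45037 probe sets with Benjamini-Hochberg adjustment at 0.05, and tested on simulated data. SE and 95% intervals are moderated, while SD describes the 3 arrays within a group. The number of arrays limits the precision.

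Every Slc2a probe set is reported. Other genes were represented by their brightest probe set on average and named, up to 4 per list, at an unadjusted p under 0.05; Rab13, the single markers named, Slc5a1, Slc45a3, Hk1, Hk2, Txnip, Hif1a, Myc and Sp1 were added after their values were seen. The members and lists were chosen with earlier results of these data known. The fit was repeated with probe sets averaging at least log2 4 or 6, with median-centred arrays, with quantile normalization applied again, with cyclic loess, with a trended robust prior, as an ordinary linear model, with array quality weights, with 1 probe set per gene, and without each array in turn. Genes of the lists without a probe set of a single symbol were not analysed here.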

Additional observations from a re-analysis of the deposited data

How the results depend on the processing

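The family's median difference kept its direction in the 15 alternative fits, between -0.19 without vehicle replicate 3 and -0.06 without vehicle replicate 2, and no Slc2a probe set passed the adjusted threshold in any. Of the 19 probe sets, 10 stayed below 0 and 1 above 0 in every fit that held them, and 8 changed sign in at least 1. The number of members at an unadjusted p under 0.05 was 1 as reported. It was 0 with a minimum mean of log2 6 and with 1 probe set per gene. It was 2 with repeated quantile normalization and with array quality weights, and 3 with an ordinary linear model. It ran from 0 to 5 when each array was left out. Among the alternative fits, the share of all probe sets at that level is given only without vehicle replicate 2 (15.2%) and without vehicle replicate 3 (21.5%). The other member counts have no background beside them, so none is read as a result about the family. The count of all probe sets past the adjusted threshold was 0 as reported. It was 822 with array quality weights and 0 to 885 when each array was left out. At an unadjusted p under 0.05, 7399 of all probe sets passed with limma on all 6 arrays.

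Cyclic loess gave 0.01 for Slc2a3 1455898_x_at, 0.01 for Slc2a5, 0.02 for Slc2a6 and 0.03 for Slc2a9 1440873_at, repeated quantile normalization gave -0.0021 for Slc2a12 1435911_s_at, and array quality weights gave 0.02 for Slc2a3 1455898_x_at and 0.02 for Slc2a9 1440873_at. With each array left out in turn, Slc2a1 ran from -0.53 to 0.09 on 1426599_a_at and from -0.30 to 0.02 on 1426600_at, Slc2a3 from -0.11 to 0.30 on 1437052_s_at and from -0.17 to 0.15 on 1455898_x_at, Slc2a5 from -0.12 to 0.08, Slc2a6 from -0.17 to 0.07, Slc2a9 1440873_at from -0.12 to 0.05 and Slc2a12 1435911_s_at from -0.16 to 0.37. The cause was not tested. No paired analysis was possible because the replicate numbers only name the mice. With 3 arrays per group, signals under the arrays' lower quartiles, as for Slc2a2, the dimmer Slc2a3 pair and, on most or all arrays, both Slc2a10 probe sets, limit what can be read.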
